A study of Mus musculus with 24 samples.

Results

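Msh3 lies on mouse chromosome 13. The chromatin of the 20 Mb on each side of it was followed in striatal neurons of Msh3-/- mice and of mice with Msh3. The set comprised every peak of the deposited count table on chromosome 13 whose midpoint lay within 20 Mb of the Msh3 promoter (GRCm38). This held for 2037 of 147020 peaks, or 1.39%. The peaks were chosen by position alone, so none of their counts entered the choice. ATAC-seq uses a transposase to cut and tag open DNA, and a peak's count measures how accessible that stretch of chromatin was.

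The study profiled 24 mice aged 12 months, 3 females and 3 males of each of 4 genotypes, all on a C57BL/6 background, with 50000 NeuN-sorted neuronal nuclei of the striatum per animal. Msh3-/- X Q140 mice lacked Msh3 and carried 1 Q140 knock-in allele of Htt, an expanded CAG repeat in the huntingtin gene. Msh3-/- mice lacked Msh3 and had no Q140 allele, Q140 mice were heterozygous for the knock-in and kept Msh3, and wild type mice carried neither change. The labels do not say how the Msh3 allele was made or which cells it came from. Animals without Msh3 are therefore those labelled Msh3-/-, on either Htt genotype, whatever the form of the allele. Loss of Msh3 and anything else carried on the same copies of chromosome 13 cannot be told apart, because every animal without Msh3 has 2 copies of the targeted chromosome.

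MSH3 acts in DNA mismatch repair and binds loops of unpaired DNA, such as those that form in CAG repeats. In mouse models of Huntington's disease it is needed for the repeat to lengthen in striatal neurons. The window also holds genes of synaptic vesicles (Sv2c), the cytoskeleton (Map1b, Iqgap2) and a striatal neuropeptide (Cartpt).

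Library totals ranged over 5823567 to 11736557 counts in Msh3-/- X Q140 mice, 4372251 to 9868256 in Msh3-/- mice, 6848049 to 11367014 in Q140 mice and 5128118 to 9263371 in wild type mice. The window took 1.17 to 1.31% of the counts of a library. Summed counts at the promoters of 4 neuronal marker genes were 103 to 133 CPM, which are counts relative to library size, in Msh3-/- X Q140, 92.3 to 153 in Msh3-/-, 103 to 148 in Q140 and 106 to 140 in wild type mice, and those of 8 of 9 markers of striatal projection neurons were 171 to 216, 181 to 250, 172 to 231 and 191 to 270 CPM in the same genotypes. Promoter peaks were present for 1 of 5 marker genes of astrocytes, microglia and endothelial cells each and for 4 of 5 of oligodendrocytes, with medians of 2.38 to 4.04 CPM per gene, against 30.5 CPM for the neuronal markers. A pair of libraries stood apart. Female Q140 F2 had 1.47% of its counts on chromosome X, where other female libraries had 1.72 to 1.94% and male libraries 1.49 to 1.59%. In Msh3-/- X Q140 M1 the 10 highest peaks took 12.7% of the counts, against 2.52 to 6.82% elsewhere. The number of calls over the window in each comparison was also counted without both of these libraries, and the count is given below or among the effects of the processing where it moved by over 1.5 times.

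The Msh3 promoter peak, chr13:92354380-92355482, covers the start of Msh3 and was not called in any comparison. The RefSeq sequence of the 250 bases before each start (GRCm38.p6, 5′ to 3′ on the gene's strand) is shown for Msh3, because its promoter is the reference point of the window, and for Erap1, Wdr41 and Gtf2h2, whose promoter peaks were higher in Q140 mice (described with that comparison). Capitals mark the GC box GGGCGG or its reverse complement CCGCCC.
Msh3, chr13:92355004-92355253, minus strand: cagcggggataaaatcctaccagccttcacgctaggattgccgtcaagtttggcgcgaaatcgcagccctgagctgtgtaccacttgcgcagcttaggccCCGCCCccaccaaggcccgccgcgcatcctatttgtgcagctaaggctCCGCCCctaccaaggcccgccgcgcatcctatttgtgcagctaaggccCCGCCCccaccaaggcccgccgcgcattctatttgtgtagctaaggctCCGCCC
Erap1, chr13:74639603-74639852, plus strand: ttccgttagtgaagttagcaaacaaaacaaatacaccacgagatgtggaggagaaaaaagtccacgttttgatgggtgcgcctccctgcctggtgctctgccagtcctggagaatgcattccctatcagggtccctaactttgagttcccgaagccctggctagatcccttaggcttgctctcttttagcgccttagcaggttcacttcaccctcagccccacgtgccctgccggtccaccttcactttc
Wdr41, chr13:94976094-94976343, plus strand: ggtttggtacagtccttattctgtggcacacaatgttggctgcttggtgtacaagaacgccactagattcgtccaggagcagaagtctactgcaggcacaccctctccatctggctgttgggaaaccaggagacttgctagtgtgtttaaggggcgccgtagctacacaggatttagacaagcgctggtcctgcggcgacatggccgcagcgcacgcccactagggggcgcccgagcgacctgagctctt
Gtf2h2, chr13:100492395-100492644, minus strand: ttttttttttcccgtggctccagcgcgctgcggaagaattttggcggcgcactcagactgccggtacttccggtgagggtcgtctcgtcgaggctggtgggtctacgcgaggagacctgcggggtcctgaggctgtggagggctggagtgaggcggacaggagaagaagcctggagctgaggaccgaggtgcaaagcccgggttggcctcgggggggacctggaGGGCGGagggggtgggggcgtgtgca

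The Msh3 stretch holds 4 GC boxes and no CCAAT or TATAAA on either strand, and 62.8% of its bases are G or C. A run of 39 bases occurs in it as 2 exact copies, from positions 109 and 157 counted from 1 at its 5′ end. Gtf2h2 holds 1 GC box, and Erap1 and Wdr41 hold none. Of 32851 mouse promoters of the same length in the RefSeq table, 32.7% hold a GC box, 33.8% a CCAAT and 12.4% a TATAAA on either strand. Of the 216 genes nearest to the peaks, 180 have a promoter sequence in that table.

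Of the 2037 peaks, 2026 passed the filter on low counts and were tested. The other 11 held at most 259 counts over all libraries. The peaks were 200 to 2328 bases wide, with a median of 419, and the tested ones had a median of 27 counts per library. A peak was called at a Benjamini-Hochberg adjusted p under 0.05 in edgeR's quasi-likelihood test, with the adjustment over all 146155 tested peaks of the genome. Values per animal are CPM after TMM scaling, and fold changes are log2 with their standard error (SE). Just inside the lower end of the window, a Gm20554 peak had a log2 fold change of 0.00 in Q140 against wild type mice, and just outside it another Gm20554 peak had 1.64. At the upper end the Ankrd55 peak just inside had -0.02 and the Il6st peak just outside -0.14.

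Loss of Msh3 was measured in separate animals on each Htt genotype. In Msh3-/- against wild type mice 18 of 2026 window peaks were called (0.888%), 9 higher and 9 lower, against 0.000694% of 144129 tested peaks outside the window, which is 1 peak. Scaled by total counts instead of TMM, these calls numbered 6 higher and 10 lower. In Msh3-/- X Q140 against Q140 mice 51 window peaks were called (2.52%), 26 higher and 25 lower, against 0.501% outside. That count was 23 without Q140 F2 and Msh3-/- X Q140 M1 together, and 33 without Q140 M2 alone. Averaged over both Htt genotypes, which sets 12 animals without Msh3 against 12 with it, 54 window peaks were called (2.67%), 31 higher and 23 lower, against 0.0243% outside. An unadjusted p under 0.05 was reached by 13.2% of window peaks and 5.48% of the others in the averaged comparison.

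The called peaks were not spread evenly along the window. In the averaged comparison 53 of the 54 lay between 92222094 and 99932870, a stretch of 7.71 Mb with 706 tested peaks that starts 10.2 kb inside the far (3′) end of Msh3 and runs toward higher coordinates. Of 645 tested peaks at lower coordinates than Msh3, edgeR called 0 and DESeq2 and limma-voom called 1 each, and 66 had an unadjusted p under 0.05 in edgeR. Inside Msh3 14 of 24 were called, all higher. Within 8 Mb above Msh3 39 of 704 were called, 16 higher and 23 lower, or 5.54%. Beyond 8 Mb 1 of 652 was called, at 0.153%. The 8 Mb limit was set after the values were seen, so the shares on either side of it are a description.

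**Figure D1:**
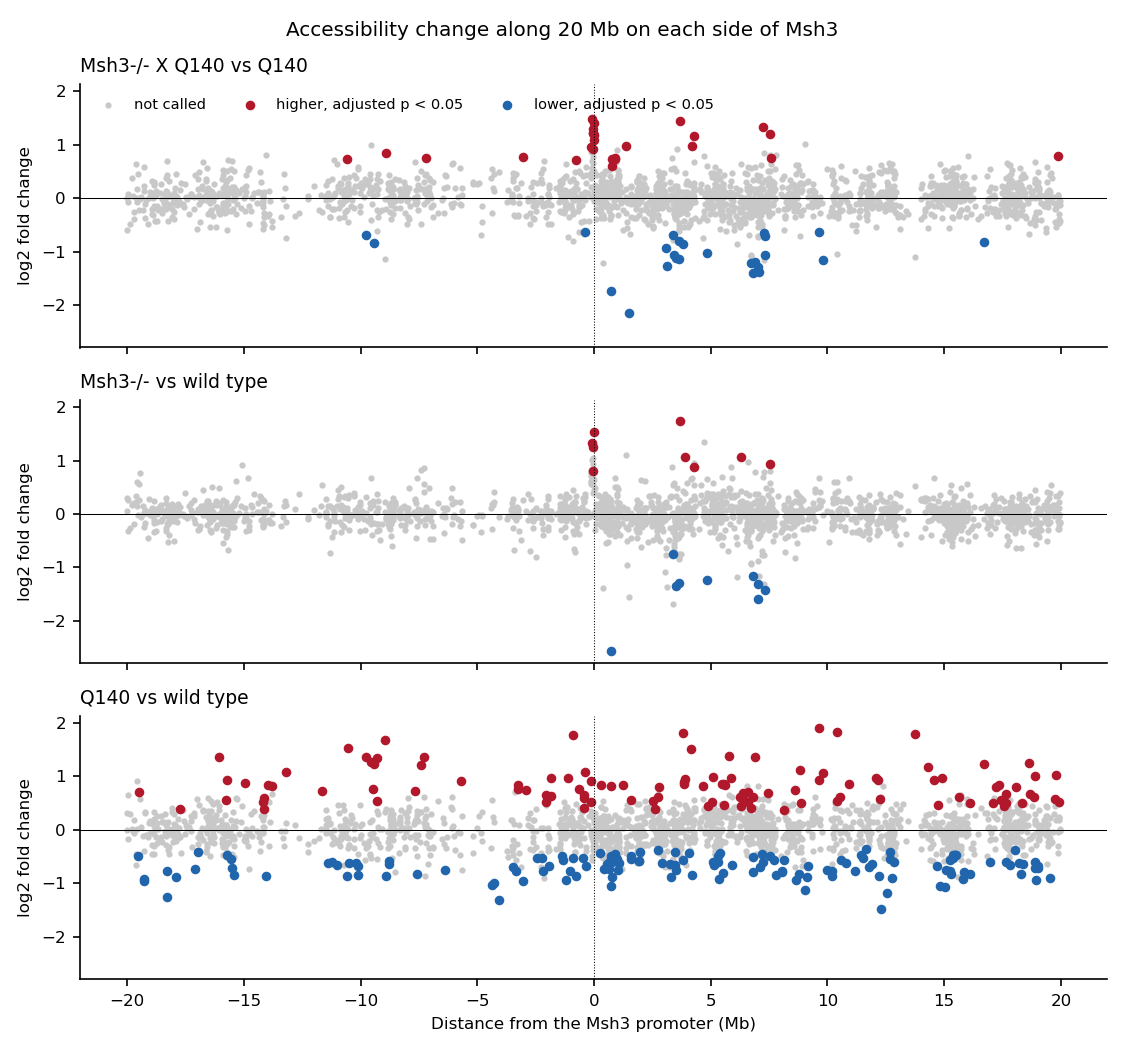
Each point is a tested peak, placed by its distance from the Msh3 promoter (x axis, Mb) and its log2 fold change (y axis), for Msh3-/- X Q140 against Q140, Msh3-/- against wild type and Q140 against wild type mice. Red points were called higher and blue points lower at an adjusted p under 0.05. Calls for loss of Msh3 sit mostly at 0 to 8 Mb, and the 256 calls in Q140 against wild type mice lie on both sides of Msh3.

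At the edges of the stretch called and uncalled peaks lay close together. The 5 tested peaks below its lowest call had log2 fold changes of 0.11, 0.24, 0.06, -0.25 and 0.54 in the averaged comparison, none called. Its highest call, a Cartpt-nearest peak at chr13:99932198-99932870, had 0.60 (SE 0.11, adjusted p = 0.00644), and the 5 tested peaks above it had 0.00, 0.23, 0.03, 0.10 and 0.09. Within the stretch the calls came in runs separated by gaps of over 0.5 Mb. The first run, from Msh3 to an intron of Arsb (chr13:92222094-93843329), held 17 higher and 4 lower calls among 169 tested peaks. The run that starts near Crhbp and includes Iqgap2 and Sv2c held 6 higher and 8 lower calls among 115 tested peaks. The run from Tmem174 to Cartpt (chr13:98632427-99932870) held 6 higher and 10 lower among 147. Between the run that ends in Arsb and the one that starts near Crhbp, 140 tested peaks over 1.58 Mb held no call.

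Inside Msh3 itself all 24 tested peaks were more accessible in animals labelled Msh3-/-, in both pairs of genotypes. The summed level of the 24 peaks had a lowest, median and highest animal of 88.9, 95.6 and 112 CPM in Msh3-/- X Q140 mice and 92.5, 96.1 and 116 CPM in Msh3-/- mice, against 57.8, 59.6 and 69.8 CPM in Q140 mice and 50.2, 56.1 and 66.5 CPM in wild type mice. Every animal without Msh3 was above every animal with it. The median log2 fold change of the 24 peaks was 0.81 in Msh3-/- X Q140 against Q140 mice, with 9 called, and 0.77 in Msh3-/- against wild type mice, with 4 called. In Q140 against wild type mice it was -0.08, with 2 called.

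The largest averaged rise inside Msh3 was over an annotated exon at chr13:92344656-92345403. The lowest, median and highest animals had 5.56, 7.02 and 7.81 CPM in Msh3-/- X Q140 mice and 6.26, 6.89 and 8.20 CPM in Msh3-/- mice, against 1.94, 2.57 and 3.54 CPM in Q140 mice and 1.59, 2.49 and 3.66 CPM in wild type mice. The genotypes with and without Msh3 did not overlap. The averaged log2 fold change was 1.47 (SE 0.12, adjusted p = 3.61e-11). A peak over another exon, chr13:92263596-92263917, had 1.41 (SE 0.16, adjusted p = 2.83e-07), and an intron peak at chr13:92292155-92292731 had 1.24 (SE 0.12, adjusted p = 9.69e-09). The intron peak ranged over 4.30 to 7.06 CPM in the 12 animals without Msh3 and 1.38 to 3.52 CPM in the 12 with it.

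The Msh3 promoter peak, unlike 14 of the 24 peaks of the gene body, was not called. It had 58.2, 66.5 and 71.9 CPM (lowest, median and highest animal) in Msh3-/- X Q140 mice and 61.8, 69.2 and 84.1 CPM in Msh3-/- mice, against 58.0, 68.3 and 77.0 CPM in Q140 mice and 54.3, 71.1 and 82.2 CPM in wild type mice. The 4 ranges overlap, and the averaged log2 fold change was -0.02 (SE 0.07, adjusted p = 1). The deposited annotation names each peak by the nearest gene start, so the 24 peaks inside Msh3 carry the names of neighbouring genes.

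**Figure D2:**
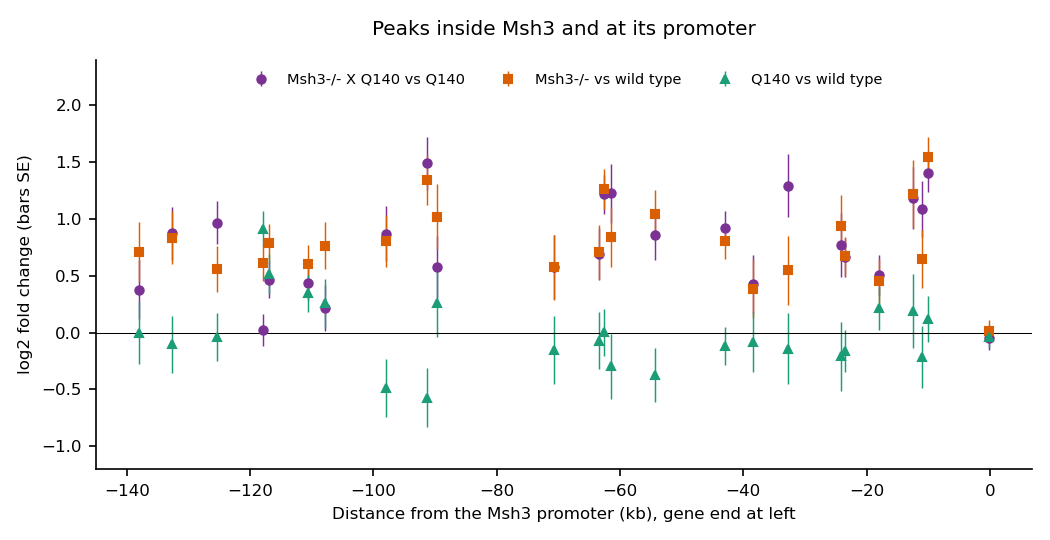
Log2 fold change (y axis, bars 1 SE) of the 24 tested peaks inside Msh3 and of its promoter peak by distance from the promoter (x axis, kb), for Msh3-/- X Q140 against Q140 (circles), Msh3-/- against wild type (squares) and Q140 against wild type mice (triangles). All circles and squares of the gene body are above 0, and the promoter peak at the right is at -0.05 and 0.01.

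Above Msh3 the called peaks went in both directions, 16 higher and 23 lower. The peak of smallest p was in an intron of Sv2c, which encodes a synaptic vesicle protein abundant in the striatum, at chr13:96023633-96024453. It had 21.0, 22.0 and 26.4 CPM (lowest, median and highest animal) in Msh3-/- X Q140 mice and 15.1, 28.1 and 29.6 CPM in Msh3-/- mice, against 7.90, 8.33 and 9.45 CPM in Q140 mice and 6.71, 7.26 and 9.09 CPM in wild type mice. No animal without Msh3 overlapped one with it. The averaged log2 fold change was 1.60 (SE 0.09, adjusted p = 4.80e-16).

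In the same Sv2c intron, 11.7 kb away, a neighbouring peak moved the other way. The peak at chr13:96010877-96011965, whose nearest gene start is that of Iqgap2, had 10, 13 and 13.6 CPM in Msh3-/- X Q140 mice and 8.64, 11.7 and 14.3 CPM in Msh3-/- mice, against 22.2, 28.3 and 31.6 CPM in Q140 mice and 22.9, 28.4 and 35.6 CPM in wild type mice. These groups did not overlap either, and the averaged log2 fold change was -1.22 (SE 0.09, adjusted p = 1.80e-13). An intron peak of Iqgap2, a scaffold protein of the cytoskeleton, fell at chr13:95849526-95850278 with -1.24 (SE 0.10, adjusted p = 3.61e-11). Its 12 animals without Msh3 ranged over 4.77 to 8.04 CPM and the 12 with it over 8.62 to 16.6 CPM. Such changes of direction occurred at 14 of the 53 steps from one called peak to the next, the closest over these 11.7 kb.

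The deepest fall in the averaged comparison was in an intron of Cmya5, a muscle-enriched protein gene, at chr13:93075857-93076284 (nearest gene start Gm4814), 0.72 Mb from the Msh3 promoter. The peak had 1.22, 1.92 and 3.13 CPM in Msh3-/- X Q140 mice and 1.16, 1.36 and 2.66 CPM in Msh3-/- mice, against 5.03, 6.34 and 7.64 CPM in Q140 mice and 7.48, 9.23 and 10.7 CPM in wild type mice. Without Msh3 every animal was below every animal with it. The log2 fold change was -1.73 (SE 0.18) in Msh3-/- X Q140 against Q140 mice and -2.57 (SE 0.18) in Msh3-/- against wild type mice. The difference between these was 0.84 (SE 0.27), with an adjusted p of 0.332 for the interaction.

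Farther out, a peak upstream of Zfp366, a zinc finger gene, fell at chr13:99157614-99158312. It ranged over 1.76 to 3.61 CPM in the 12 animals without Msh3 and 4.45 to 8.55 CPM in the 12 with it, with an averaged log2 fold change of -1.28 (SE 0.12, adjusted p = 7.48e-10). An intron peak of Mrps27, a mitochondrial ribosomal protein gene, fell at chr13:99388834-99389748 (nearest gene start 6430562O15Rik) with -1.43 (SE 0.13, adjusted p = 1.99e-09). An intergenic peak 149 kb upstream of Map1b, which encodes a microtubule-binding protein of neurons, fell at chr13:99664926-99665418 with -1.24 (SE 0.14, adjusted p = 6.79e-07). Another upstream Map1b peak, chr13:99604271-99604933, rose with 1.01 (SE 0.12, adjusted p = 1.34e-06).

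Near Cartpt, which encodes the precursor of the striatal neuropeptide CART, a peak rose at chr13:99896232-99896719. It had 6.39, 7.07 and 9.45 CPM in Msh3-/- X Q140 mice and 5.54, 8.88 and 9.46 CPM in Msh3-/- mice, against 2.48, 3.11 and 4.31 CPM in Q140 mice and 3.52, 4.52 and 5.13 CPM in wild type mice. The groups with and without Msh3 did not overlap, and the averaged log2 fold change was 1.07 (SE 0.10, adjusted p = 6.12e-09). The peak overlaps an annotated repeat, where reads of similar copies elsewhere could be misplaced.

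Some genes above Msh3 held several called peaks. Introns of Iqgap2 held 4 called peaks, 1 higher and 3 lower, and introns of Sv2c held 4, also 1 higher and 3 lower. In Iqgap2 a peak at chr13:95692143-95692598 had 0.81 (SE 0.14, adjusted p = 0.00199), and the next called peak, chr13:95719344-95720260, had -0.71 (SE 0.09, adjusted p = 2.80e-06). The second ranged over 7.77 to 11.6 CPM without Msh3 and 10.7 to 18.9 CPM with it, so the groups overlapped. Upstream of Map1b 5 peaks were called, 1 higher and 4 lower, from -1.24 to 1.01.

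An intron peak of Arsb, a lysosomal sulfatase gene, fell at chr13:93843077-93843329 with -1.86 (SE 0.26, adjusted p = 7.15e-05), from 0.174 to 1.16 CPM in animals without Msh3 and 1.17 to 3.29 CPM in animals with it. This is a shallow peak, and its groups lie next to each other. A peak upstream of Homer1, which encodes a scaffold of the postsynaptic density, rose at chr13:93250972-93251481 with 0.70 (SE 0.11, adjusted p = 0.00056), and one near Crhbp, which encodes a protein that binds corticotropin-releasing hormone, fell at chr13:95424965-95425885 with -0.85 (SE 0.11, adjusted p = 1.87e-05). Introns of Cert1, a ceramide transfer protein gene, held 2 higher peaks with 0.83 (SE 0.14) and 0.82 (SE 0.15), 1 of them not called at a count minimum of 30 (adjusted p = 0.0507). Over all 54 calls the size of the averaged log2 fold change ran from 0.52 to 2.15 with a median of 0.86, and 17 of them were called in neither pair of genotypes alone.

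**Figure D3:**
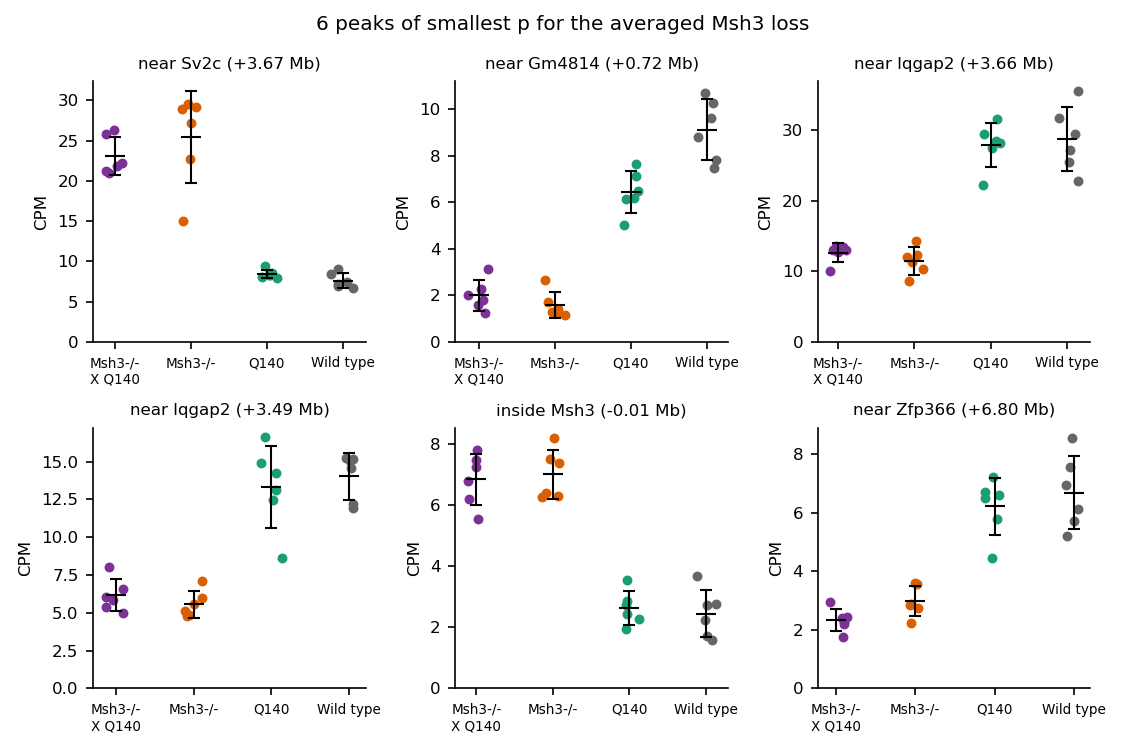
CPM (y axis, from 0) of each animal at the 6 window peaks of smallest p for the averaged loss of Msh3, by genotype, with the mean and SD (n = 6 each); titles give the nearest gene and the distance from the Msh3 promoter. In every panel the 12 animals without Msh3, at left, are separate from the 12 with it.

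**Figure D4:**
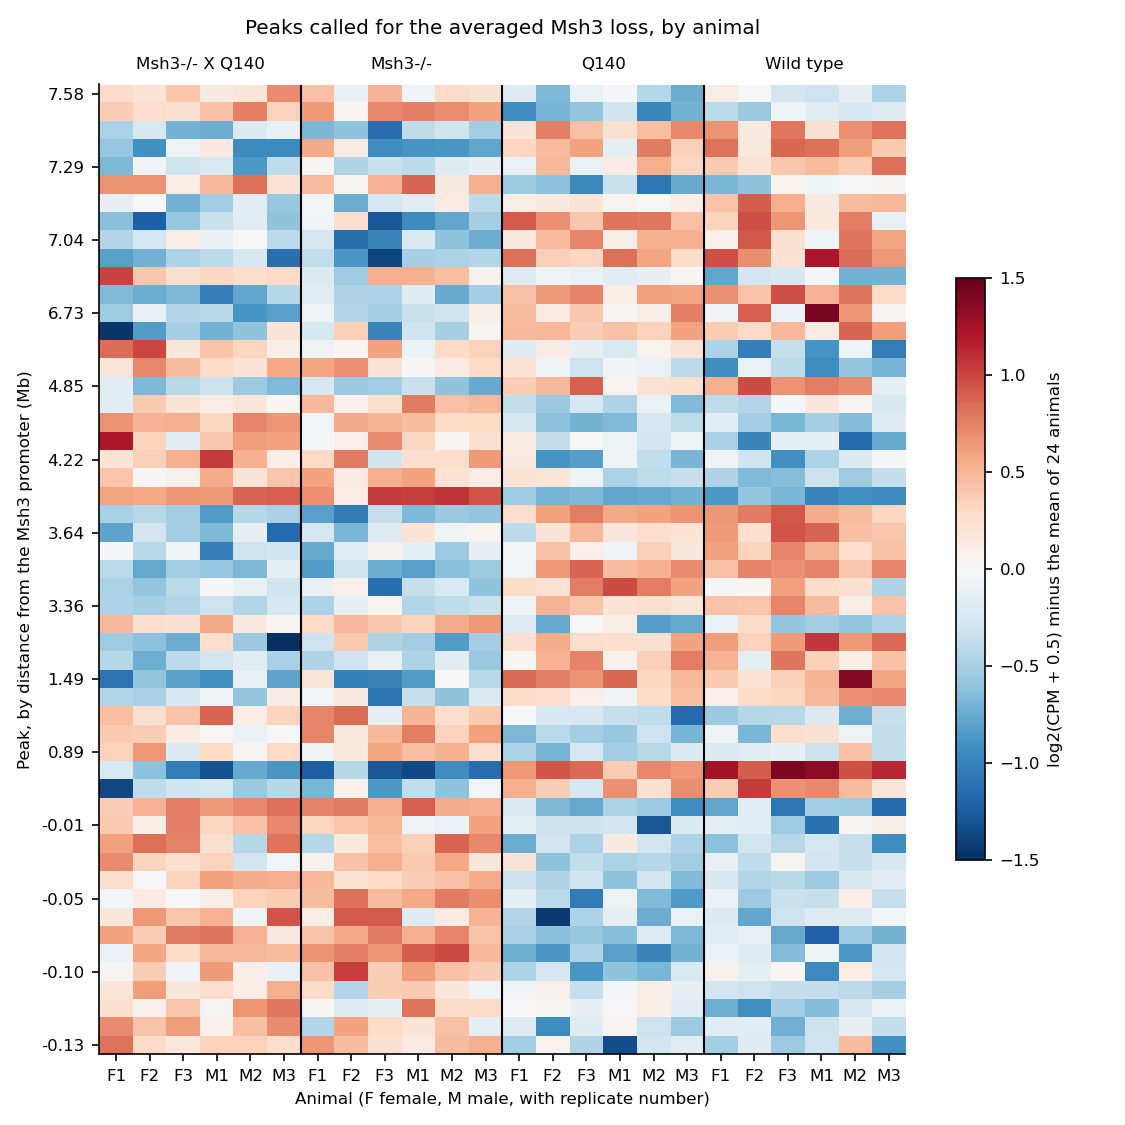
Log2(CPM + 0.5) minus the mean of the 24 animals (colour) for the 53 called peaks within 8 Mb of Msh3 (rows, by distance from its promoter) in each animal (columns, by genotype, F female and M male). The colours of Msh3-/- X Q140 and Msh3-/- mice resemble each other and are opposite to those of Q140 and wild type mice. These peaks were chosen for that contrast.

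Across all tested peaks, the CPM of the 12 animals without Msh3 and the 12 with it did not overlap at 14 window peaks, 6 higher and 8 lower, and at 1 peak outside, which is 0.000694% of 144129. At the 53 called peaks from Msh3 to 8 Mb above it, an animal without Msh3 was nearer to the median of the animals without it at 41 to 51 peaks, and an animal with Msh3 at 1 to 10. The highest of the second range was Q140 F1. These peaks were called on the same animals, whose values also enter the medians. This separation is therefore built in to an extent that was not estimated, and the counts are a description. Each of the 54 averaged calls had the same sign, with an unadjusted p under 0.05, in females alone and in males alone. The calls were chosen from both sexes together, so this likeness is partly built in. The females include Q140 F2, whose share of counts on chromosome X was below that of every male library.

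The pair of comparisons for loss of Msh3 share no animal. Of the 18 peaks called in Msh3-/- against wild type mice, 15 were called in the same direction in Msh3-/- X Q140 against Q140 mice, which is 83.3% of the first list and 29.4% of the second. All 18 had the same sign and an unadjusted p under 0.05 in the second comparison. Of the 51 calls in Msh3-/- X Q140 against Q140 mice, 39 lay inside Msh3 or within 8 Mb above it, and 37 of those had the same sign in Msh3-/- against wild type mice. The other 12 lay elsewhere in the window, and 7 of them had the same sign. All 12 had the opposite sign in Q140 against wild type mice, and 10 were called there, as were 8 of the 39. Both of these comparisons use the Q140 mice, so opposite signs are partly built in. Without Q140 F2 and Msh3-/- X Q140 M1 23 calls lay inside Msh3 or within 8 Mb above it, 22 of them with the same sign in Msh3-/- against wild type mice, and 0 lay elsewhere. Among the 12 calls elsewhere, a Cetn3 peak at chr13:81779723-81780034 had 0.74 (adjusted p = 0.0437) in Msh3-/- X Q140 against Q140 mice and 0.01 in Msh3-/- against wild type mice. Its call ended in 14 of 24 fits that left out 1 library, in limma-voom (adjusted p = 0.0513), scaled by total counts (adjusted p = 0.0543) and without both libraries (adjusted p = 0.263). Across the 728 tested peaks from Msh3 to 8 Mb above it, Pearson's r between the log2 fold changes was 0.641 (Spearman's rho 0.338). Across the 1298 elsewhere in the window r was 0.0184 (rho 0.0232), and across the 144129 outside it was -0.0452 (rho -0.0495). Neighbouring peaks share libraries and can share reads, so these are descriptions.

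**Figure D5:**
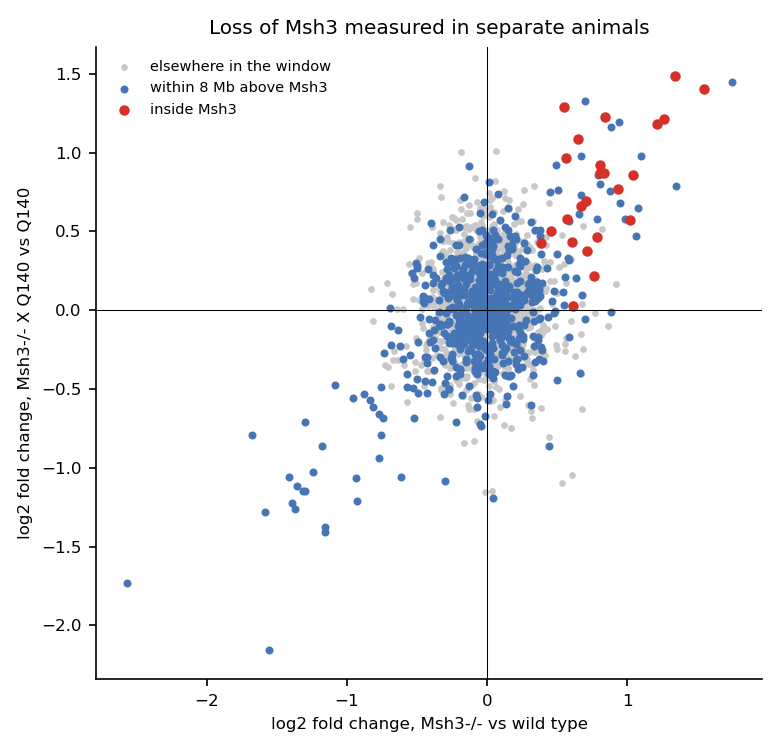
Log2 fold change in Msh3-/- X Q140 against Q140 mice (y axis) and in Msh3-/- against wild type mice (x axis) for each tested window peak, inside Msh3 (red), within 8 Mb above it (blue) and elsewhere (grey). The 24 red points are all above 0 on both axes, and blue points reach from below -2 to above 1 along the diagonal.

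None of the 54 averaged calls was at a promoter. The annotation placed 32 in introns, 20 in intergenic DNA and 2 in exons. From Msh3 to 8 Mb above it, promoters were 36 of 728 tested peaks (4.95%). In the whole window they were 112 of 2026 (5.53%). At such shares few of 54 calls would fall at promoters, and a difference was not tested. At those 112 edgeR, DESeq2 and limma-voom each called 0 for the averaged loss of Msh3, and 9 had an unadjusted p under 0.05 in edgeR. Their averaged log2 fold changes ran from -0.47 to 0.40 with a median of 0.01. The called peaks lay a median of 42.4 kb from a gene start, against 48.4 kb for all tested window peaks, and 18.5% of them overlapped an annotated repeat, against 22.5%.

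A single averaged call lay far from Msh3. It was an intergenic Ankrd55 peak at chr13:112220923-112221678, 19.9 Mb above the Msh3 promoter. It had 4.98, 6.14 and 8.69 CPM in Msh3-/- X Q140 mice and 3.76, 6.56 and 7.46 CPM in Msh3-/- mice, against 2.71, 3.80 and 4.27 CPM in Q140 mice and 4.54, 5.03 and 5.64 CPM in wild type mice. Animals with and without Msh3 overlapped, and the log2 fold change was 0.56 (SE 0.11, adjusted p = 0.0272), with an adjusted p of 0.0685 without Q140 F2 and Msh3-/- X Q140 M1. Leaving out 1 library ended this call in 10 of 24 fits, and limma-voom gave an adjusted p of 0.0546.

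The gene lists of the window, grouped by role, were counted by nearest gene start. Synaptic and vesicle genes had 6 higher and 5 lower among 298 outside Msh3 (3.69%), receptors, transporters and channels 2 higher and 3 lower among 146 (3.42%), and cAMP, GTPase and kinase signalling genes 1 higher and 4 lower among 238 (2.10%). Transcription factors had 1 of each among 150, and genes of RNA processing 2 higher among 106. These shares stand beside 2.67% for the window, which includes the 14 calls inside Msh3, and 0.0243% outside it. They also depend on how many peaks of a list lie within 8 Mb above Msh3, where 5.54% were called. Genes of DNA repair (61 peaks), the cell cycle (99 peaks) and innate immunity (30 peaks) had 0 averaged calls in edgeR, DESeq2 and limma-voom, with 6, 9 and 3 at an unadjusted p under 0.05 in edgeR. A called peak of Tent2, a poly(A) polymerase gene, had 0.64 (SE 0.13, adjusted p = 0.0323), and one of Tnpo1, a nuclear import receptor gene, had 0.78 (SE 0.16, adjusted p = 0.0214). Both calls ended without Q140 F2 and Msh3-/- X Q140 M1, at adjusted p of 0.145 and 0.0584, and in 15 and 9 of 24 fits that left out 1 library.

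More peaks of the window were called for the Q140 allele, on both sides of Msh3. In Q140 against wild type mice 256 of 2026 window peaks were called (12.6%), 113 higher and 143 lower, against 10.3% of the tested peaks outside. Scaled by total counts instead of TMM, these calls numbered 139 higher and 126 lower, and without Q140 F1 137 higher and 115 lower. The share was 13% at lower coordinates than Msh3, 8.33% inside it, 11.1% within 8 Mb above and 14.1% beyond. These shares are near that of the rest of the genome. An unadjusted p under 0.05 was reached by 25.5% of window peaks and 21.2% of the others.

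The most significant of these peaks lay 244 kb upstream of Pik3r1, which encodes a regulatory subunit of phosphoinositide 3-kinase, at chr13:102011762-102012394. It had 5.43, 8.98 and 10.3 CPM (lowest, median and highest animal) in Q140 mice, against 1.92, 2.27 and 2.57 CPM in wild type mice. In the mice without Msh3 it had 3.65, 5.26 and 8.71 CPM with the Q140 allele and 2.17, 3.61 and 4.52 CPM without it. The log2 fold change for Q140 was 0.60 (SE 0.18, adjusted p = 0.195) without Msh3 and 1.91 (SE 0.18, adjusted p = 1.00e-09) with it. The effect without Msh3 minus that with it was -1.31 (SE 0.26, adjusted p = 0.0406), the single interaction call of the window, against 0.0222% outside. It ended in 17 of 24 fits that left out 1 library, in limma-voom (adjusted p = 0.0753) and without Q140 F2 and Msh3-/- X Q140 M1 (adjusted p = 0.169).

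Other peaks that rose in Q140 mice included an intergenic Cetn3 peak (a centriole protein gene) at chr13:81839646-81840748 with 1.54 (SE 0.18), an intergenic Sv2c peak at chr13:96188473-96188924 with 1.82 (SE 0.24) and an intron peak of Polk, a translesion DNA polymerase gene, at chr13:96514641-96515226 with 1.51 (SE 0.21). The Sv2c peak had 4.35, 4.91 and 7.14 CPM in Q140 mice, against 0.570, 1.58 and 2.47 CPM in wild type mice, with no overlap. A Mef2c peak (a transcription factor of neurons and muscle), 121 kb from that gene's start, rose with 1.68 (SE 0.32). An Ssbp2 peak (a single-stranded DNA-binding protein gene), 16.8 kb from its gene's start, rose with 1.78 (SE 0.31). A Ccnh peak (cyclin H, of the CDK-activating kinase), 256 kb from its gene's start, rose with 1.21 (SE 0.18).

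Peaks that fell in Q140 mice included an intron peak of Cwc27, a spliceosome-associated gene, at chr13:104662002-104662527 with -1.48 (SE 0.19). An Edil3 peak (an extracellular matrix protein gene), 520 kb from that gene's start, fell at chr13:88301080-88301480 with -1.32 (SE 0.20). An intron peak of Cep72, a centrosomal gene, fell at chr13:74059281-74059916 with -1.25 (SE 0.17). The Cwc27 peak had 2.00, 2.96 and 3.59 CPM in Q140 mice, against 6.45, 7.78 and 9.08 CPM in wild type mice, with no overlap. An intron peak of Elovl7, a fatty acid elongase gene, fell with -0.79 (SE 0.16). The innate immune genes had 1 higher and 5 lower calls among 30 peaks, among them Naip1, whose family of near-identical copies can share reads, with -0.79 (SE 0.16).

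By role, the Q140 calls ran from 9.66% of 238 peaks for signalling genes to 20.0% of 30 for innate immune genes. Synaptic and vesicle genes had 12 higher and 26 lower among 303 (12.5%), DNA repair genes 4 higher and 5 lower among 61 (14.8%), transcription factors 10 higher and 12 lower among 150 (14.7%), and cell cycle genes 4 higher and 10 lower among 99 (14.1%); signalling genes had 13 higher and 10 lower. Receptors, transporters and channels had 8 higher and 9 lower among 146 (11.6%), and RNA processing genes 5 higher and 7 lower among 106 (11.3%). These lie around the 12.6% of the window. The 303 synaptic and vesicle peaks include 5 inside Msh3. Outside Msh3 that list had 10 higher and 26 lower among 298 (12.1%).

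At promoters 5 of 112 tested peaks (4.46%) were called in Q140 against wild type mice, all higher, against 12.6% of all tested window peaks and 10.3% of those outside. The promoter of Erap1, an aminopeptidase that trims antigens, had 15.7, 18.6 and 20.0 CPM in Q140 mice, against 11.6, 14.2 and 15.4 CPM in wild type mice, with no overlap and a log2 fold change of 0.39 (SE 0.11, adjusted p = 0.0159). Wdr41, a partner of the C9orf72 protein, had 16.4, 18.0 and 20.5 CPM in Q140 mice, against 9.82, 13.8 and 17.6 CPM in wild type mice, with 0.40 (SE 0.13, adjusted p = 0.0317). Gtf2h2, a subunit of the transcription and repair factor TFIIH, had 11.4, 12.2 and 13.2 CPM in Q140 mice, against 7.95, 9.27 and 12.0 CPM in wild type mice, with 0.37 (SE 0.12, adjusted p = 0.0457). The ranges of Wdr41 and Gtf2h2 overlap. The remaining promoters were those of Ankrd55 at 0.52 (SE 0.15, adjusted p = 0.0195) and Mir1904, within Pde4d, at 0.45 (SE 0.12, adjusted p = 0.0119). Without Q140 F2 and Msh3-/- X Q140 M1 the calls of Wdr41 and Gtf2h2 ended, at adjusted p of 0.0626 and 0.0792. Leaving out 1 library ended the call of Gtf2h2 in 8 of 24 fits, that of Wdr41 in 4, that of Ankrd55 in 3 and those of Erap1 and Mir1904 in 1 each.

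In mice without Msh3, 1 window peak was called, higher, in Msh3-/- X Q140 against Msh3-/- mice (0.0494%), against 0.117% outside, and 164 window peaks had an unadjusted p under 0.05. It was an intergenic Adamts6 peak (a secreted metalloprotease gene) at chr13:104501370-104501928. The peak had 2.90, 4.21 and 6.25 CPM in Msh3-/- X Q140 mice, against 1.77, 1.96 and 2.39 CPM in Msh3-/- mice, with no overlap. The log2 fold change was 1.05 (SE 0.20, adjusted p = 0.0155). The call ended in 5 of 24 fits that left out 1 library and when only these 2 genotypes were fitted (adjusted p = 0.0784). In Q140 against wild type mice the same peak had 0.94 (SE 0.19, adjusted p = 0.000474).

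The 256 window peaks called in Q140 against wild type mice were then read in the other 12 animals. The 113 higher peaks had a median log2 fold change of 0.30 in Msh3-/- X Q140 against Msh3-/- mice, 102 with the same sign and 44 with an unadjusted p under 0.05, beside a median of 0.79 in Q140 against wild type mice. The 143 lower peaks had a median of -0.19 in Msh3-/- X Q140 against Msh3-/- mice, 123 with the same sign and 33 with an unadjusted p under 0.05, beside -0.67 in Q140 against wild type mice. The peaks were chosen on the Q140 against wild type values, so those medians are no independent measure, and the difference between the medians was not tested.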

How the data were processed

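ATAC-seq was done by the submitters on NeuN-sorted striatal nuclei of 24 mice. The deposited table holds raw counts per peak for 147020 peaks on GRCm38, which the authors made with tools that the submitters' processing notes list as BWA, SAMtools, Picard, MACS2 and featureCounts. Their versions, and whether peaks were called on pooled libraries, were not given in these sources. Peak names, classes and nearest gene starts are those of the deposited table, and host genes are those of RefSeq GRCm38.p6.

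From the counts, edgeR 4.0.16 (R 4.3.3) fitted its quasi-likelihood model with TMM scaling and terms for genotype and for sex to the 24 libraries. Peaks passed filterByExpr at a count minimum of 10 (146155 of 147020), and p-values were adjusted over all of them by the Benjamini-Hochberg method. The averaged comparison is the mean of Msh3-/- X Q140 and Msh3-/- minus the mean of Q140 and wild type. Of 60 pairs of libraries of 1 genotype, 0 were identical. Whether replicates came from separate litters is not stated, so p-values weigh a genotype difference against the spread between these animals only.

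Alternatives were DESeq2 1.42.0, limma-voom 3.58.1, other scalings, filters and sample sets, and leaving out each library. The window, gene lists, tests and alternatives were chosen with earlier results of these data known. Peaks were chosen for naming from the calls in Msh3-/- against wild type, those of smallest p in each comparison and for each gene list, all peaks of Msh3 and the farthest calls. Not all of them are given with values. Some calls in Msh3-/- against wild type left without values were unstable. Among them, an Sv2c peak (chr13:96240004-96240391) and a Tmem174 peak (chr13:98632427-98632726) lost their call in 11 and 10 of 24 fits that left out 1 library. Promoters called in Q140 mice and the Iqgap2, Arsb, Homer1, Crhbp and Cert1 peaks named beyond this rule were added after their values were seen. So were peaks at the ends of the window and of the called stretch. Replicate numbers in the titles were not taken to pair animals in the reported fit, because the labels give no shared source for a number. Another number of each animal, in the descriptions, has no stated meaning and was not used as a block. Some genes of the window, and 1 gene list that rests on them, are not reported here.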

Additional observations from a re-analysis of the deposited data

Results flagged for a closer look

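Within a genotype, 22 of 332 groups of 6 animals had 1 animal set apart from the other 5 by Dixon's criterion, on 19 of 83 peaks; chance alone gives about 1 group in 20. Inside Msh3 these were Msh3-/- X Q140 F1 at chr13:92222094-92222468 with 4.86 CPM (others 2.90 to 3.39), Msh3-/- F2 at chr13:92256961-92257278 with 4.65 (2.73 to 3.36), Msh3-/- X Q140 M2 at chr13:92265184-92265429 with 3.71 (1.76 to 2.08), Msh3-/- X Q140 M3 at chr13:92284197-92284398 with 3.28 (1.01 to 1.76) and at chr13:92322107-92322368 with 3.51 (1.69 to 2.24). Among mice with Msh3 they were Q140 M2 at chr13:92292155-92292731 with 3.31 CPM (others 2.23 to 2.60) and at chr13:92343911-92344133 with 0.472 (1.39 to 1.65), Q140 F1 at chr13:92331095-92331744 with 4.61 (2.43 to 2.96) and wild type M2 at chr13:92315908-92317224 with 10.8 (6.27 to 6.81).

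Above Msh3, Msh3-/- F2 was set apart at the Cmya5 intron peak with 2.66 CPM (others 1.16 to 1.71), at the Cartpt peak with 5.54 (8.45 to 9.46), at an Arhgef28 peak with 2.88 (3.89 to 4.40) and at a Naip1 peak with 4.43 (7.17 to 8.45); it is the shallowest library, at 4372251 counts. Msh3-/- X Q140 M1 had 10 CPM at the Sv2c intron peak nearest to the Iqgap2 start (others 12.8 to 13.6), M2 had 9.45 at the Cartpt peak (6.39 to 7.46), F1 had 9.38 at a Zfp366 peak (5.31 to 5.97) and F3 had 3.90 at a Shisal2b peak (5.26 to 5.91). Q140 F3 had 11.6 CPM at the Arhgef28 peak (others 5.67 to 7.74). Wild type M2 had 4.66 CPM at a Tent2 peak (others 2.49 to 2.96), 3.29 at the Arsb intron peak (1.17 to 1.70), F2 had 7.04 at the Naip1 peak (8.29 to 8.81) and F3 had 10.1 at an Elovl7 peak (7.14 to 8.10).

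The Pik3r1 peak was singled out because the effect of Q140 differed between mice without and with Msh3 by -1.31 on the log2 scale, with the adjusted p and its limits given in the results.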

How the results depend on the processing

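Calls in Msh3-/- against wild type, in the averaged loss of Msh3 and in Q140 against wild type mice stayed within 1.5 times of those reported under DESeq2, limma-voom, both other scalings, both filters, no term for sex and the replicate block. The small counts moved most. For Msh3-/- X Q140 against Msh3-/- mice (1 reported) DESeq2 gave 3, a count minimum of 30 gave 4, leaving out Q140 F2 and Msh3-/- X Q140 M1 gave 2, and fitting these 2 genotypes alone gave 0. For the interaction (1 reported) DESeq2 gave 2, a count minimum of 30 gave 4, and limma-voom, no term for sex and leaving out both libraries gave 0, with 193, 192 and 163 window peaks at an unadjusted p under 0.05. Without both libraries Msh3-/- X Q140 against Q140 mice gave 23. A count minimum of 30, which tests 1144 window peaks, gave a median log2 fold change of 0.65 inside Msh3 with 8 calls.

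With 3 animals per genotype the counts fell. The female set includes Q140 F2, whose share of counts on chromosome X was below that of every male library. Females alone gave 0 in Msh3-/- X Q140 against Q140, 3 in Msh3-/- against wild type, 13 averaged, 27 in Q140 against wild type, 0 in Msh3-/- X Q140 against Msh3-/- and 0 for the interaction, with 155, 87 and 92 peaks at an unadjusted p under 0.05 for the zero counts, 2 calls inside Msh3 and 0 shared calls. Males alone gave 26 in Msh3-/- X Q140 against Q140, 7 in Msh3-/- against wild type, 34 averaged, 132 in Q140 against wild type, 0 in Msh3-/- X Q140 against Msh3-/- and 0 for the interaction, with 148 and 171 peaks at an unadjusted p under 0.05 for the zero counts, 5 calls inside Msh3 and 7 shared calls. Within 10 Mb of Msh3, 145 of 1135 tested peaks were called in Q140 against wild type.

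Leaving out each library gave 33 to 61 calls in Msh3-/- X Q140 against Q140, 13 to 20 in Msh3-/- against wild type, 49 to 57 averaged, 198 to 273 in Q140 against wild type, 0 to 3 in Msh3-/- X Q140 against Msh3-/-, 0 to 2 for the interaction, 13 to 16 shared calls, and 11 to 14 calls inside Msh3 with a median of 0.77 to 0.84. With the replicate block of 6 label numbers the counts were 54 in Msh3-/- X Q140 against Q140 and 17 in Msh3-/- against wild type. The averaged comparison gave 53 and Q140 against wild type 258. With the mean of each genotype and sex removed, same-numbered libraries correlated at a median of 0.0286 (-0.438 to 0.448). Libraries of the same sex with other numbers had -0.0249 (-0.544 to 0.442). The labels state no pairing, and these correlations cannot exclude a shared litter or batch. Of 3922 alternative values for 83 peaks, 327 lost their call and 1 gained one, and the cause was not tested. These are the peaks chosen for naming (apart from the uncalled ones at the edges) and those counted in Iqgap2 and Arsb. A change of sign was counted only where the reported or the alternative fit called the peak, and this count was 0. The uncalled Msh3 promoter peak did change sign, with averaged log2 fold changes from -0.0471 to 0.0055. A median of 27 counts per library limits single peaks, and standard errors rest on the spread between these animals only.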
